A study of Mus musculus with 5 samples.

Results

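The genes described here are 10 effector genes whose transcription follows neuronal activity: Arc, Nptx2, Ptgs2, Dusp1, Dusp6, Sik1, Gadd45b, Vgf, Rasd1 and Plk2. They were matched by gene name in the 15093 genes of the deposited table, by a rule that sets no threshold on their values, and all 10 were found and all 10 passed the filter on low values. They were measured in ribosome-bound RNA of dopamine D2 receptor (Drd2) neurons of the mouse central amygdala (CeA), with 3 fear conditioned libraries (replicates 2, 3 and 4) and 2 home cage libraries (replicates 6 and 7). Each library was a pool of bilateral punches from 3 adult Drd2-TRAP animals collected 2 h after the session. In Drd2-TRAP mice of both groups, Cre under Drd2 regulatory sequences removes a stop cassette and so turns on an EGFP-tagged ribosomal protein from a ubiquitous promoter, which marks every cell that has had Cre activity and not only cells with Drd2 at the time of collection. The labels set fear conditioning against home cage animals, but their treatment protocol places collection after fear extinction, and the paper also describes controls that heard the tone without a shock. The difference between the groups is therefore between the libraries as labelled.

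Activity-regulated effector genes are the working arm of the response of a neuron to calcium entry. Calcium and cAMP signals first switch on transcription factors such as Fos, Egr1 and Npas4, and in parallel or afterwards they switch on genes whose products act on synapses, kinases, secreted signals and chromatin. In neurons many effector mRNAs are short-lived, and several of them encode inhibitors of the pathway that induced them. In TRAP, tagged ribosomes are pulled down and their mRNA is sequenced, so a value reports mRNA on ribosomes of the tagged cells plus any RNA carried along from other cells. Because each library is a bulk sample, fewer cells of a type and less RNA per cell cannot be told apart.

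The libraries held between 19605318 and 27937520 reads on genes, and values are given in counts per 1000000 (CPM) of the authors' effective library size. A floor of 3 reads corresponds to at most 0.158 CPM, the value in home cage replicate 7, and such limits cover counting error only. The home cage libraries differed widely from each other. Home cage replicate 7 had 2681 of the 15093 genes listed at 0 and home cage replicate 6 had 976, against 159 to 349 in the fear conditioned libraries. Over the 13560 genes tested, the median absolute difference between the home cage libraries was 1.08 on the log2 scale, while the median range over the 3 fear conditioned libraries was 0.44. For this reason every gene is given in each library and with each home cage library left out where that changes what is seen.

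Of the 10 genes, 4 were above both home cage libraries in every fear conditioned library: Dusp6, Ptgs2, Plk2 and Rasd1. Across all genes tested, 20.2% lay above both home cage libraries in this way and 16.1% lay below both, and none of the 10 genes lay below. Arc and Dusp1 had higher means after fear conditioning but overlapped with home cage replicate 7. The remaining 4 genes, Nptx2, Vgf, Sik1 and Gadd45b, had all 3 fear conditioned values between those of the home cage libraries, with home cage replicate 6 the lowest and home cage replicate 7 the highest of all 5. No gene passed the fit across all genes (limma on log2(CPM + 1), a call needing a Benjamini-Hochberg adjusted p under 0.05 together with a log2 fold change beyond 0.5 in size), neither among the 10 genes nor in the whole table (0%), and the smallest adjusted p over all genes was 0.197. At an unadjusted p under 0.05, 3 of the 10 genes were higher and none lower, against 9.49% of all genes higher and 7.32% lower. Of these 3, Ptgs2 passed the filter on low values only through the fear conditioned libraries (mean 1.87 CPM against 0.0668 CPM), which favours a difference, so these counts are a description. The median log2 fold change was 0.77 for the 10 genes and 0.08 for all genes tested. The exact permutation test over the 10 possible assignments of 5 libraries cannot give a two-sided p below 0.1.

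**Figure D1:**
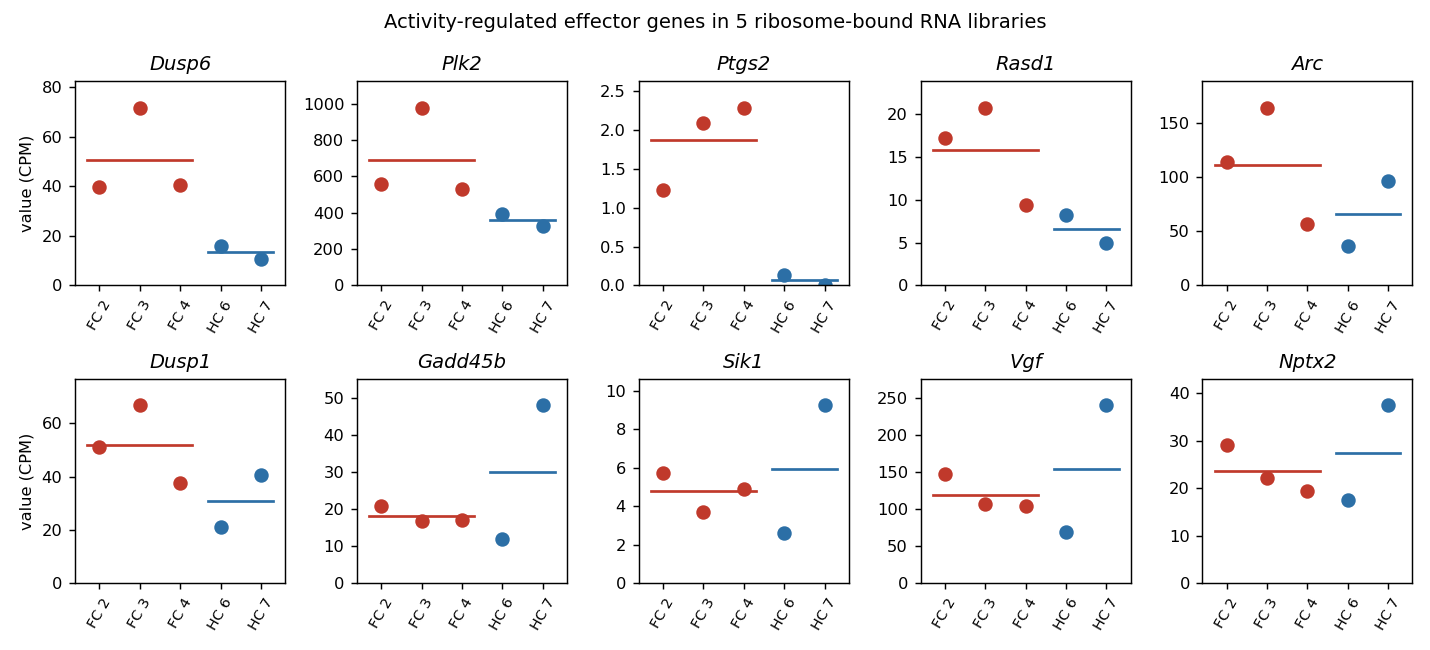
Value in CPM (vertical axis, from 0, own scale per gene) of each of the 10 genes in the 3 fear conditioned libraries (FC, red points) and the 2 home cage libraries (HC, blue points), with the mean of each group as a line. In the upper row Dusp6, Plk2, Ptgs2 and Rasd1 are above both home cage libraries in all 3 fear conditioned libraries, and in the lower row Gadd45b, Sik1, Vgf and Nptx2 are highest in home cage replicate 7.

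Dusp6 and Dusp1 encode dual-specificity phosphatases, which switch off mitogen-activated protein kinases (MAPKs) and are themselves induced by them, and of the pair only Dusp6 separated the groups. Dusp6 (ENSMUSG00000019960), the cytoplasmic phosphatase with a preference for ERK, had 39.6, 71.8 and 40.7 CPM in fear conditioned replicates 2, 3 and 4, and 16.1 and 10.9 CPM in home cage replicates 6 and 7. The lowest fear conditioned value was 2.47 times the highest home cage value, and the groups did not overlap. The mean was 3.77 times higher after fear conditioning (50.7 ± 18.2 CPM, SD, n = 3, against 13.5 ± 3.68 CPM, SD, n = 2). The limma log2 fold change was 1.81 (SE 0.42, 95% interval 0.79 to 2.82, unadjusted p = 0.0046, adjusted p = 0.197), and the exact permutation p was 0.1, the smallest possible. In DESeq2 on reads recovered from the deposited values, Dusp6 was the 1 member called (log2 fold change 1.89, adjusted p = 0.0041), where 3.68% of all genes were called higher.

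Dusp1 (ENSMUSG00000024190), the nuclear phosphatase that acts on ERK, JNK and p38, did not separate the groups. It had 50.9, 66.7 and 37.5 CPM with fear conditioning, against 20.9 and 40.7 CPM in the home cage libraries. Fear conditioned replicate 4 was below home cage replicate 7, and replicates 2 and 3 were above both home cage libraries. The limma log2 fold change was 0.76 (SE 0.42, adjusted p = 0.402), and it was 0.30 without home cage replicate 6 and 1.23 without home cage replicate 7. Within each library the log2 ratio of Dusp1 to Dusp6, taken like all ratios here from CPM + 1 per kb of gene length, was -0.07, -0.53 and -0.54 after fear conditioning, and -0.06 and 1.39 in the home cage. The groups are apart on this ratio only by the margin between fear conditioned replicate 2 and home cage replicate 6, and over the 9 ratios of a member to a relative that were computed the exact permutation p of 0.1 became 0.45 after adjustment.

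Plk2 (ENSMUSG00000021701), a polo-like kinase that weakens strongly driven synapses, was the most abundant of the 10 genes. Its values were 560, 978 and 531 CPM after fear conditioning, against 396 and 325 CPM in the home cage. All fear conditioned values were above both home cage values, by at least 1.34 times, and fear conditioned replicate 3 stood above the other two. The means were 690 ± 250 CPM (SD, n = 3) and 360 ± 49.7 CPM (SD, n = 2), and the log2 fold change was 0.88 (SE 0.32, 95% interval 0.10 to 1.67, unadjusted p = 0.033, adjusted p = 0.260 in limma). Plk3, its close relative, had a log2 fold change of 1.80 (SE 0.81, adjusted p = 0.328), and its values did not overlap between the groups either.

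Sik1 (ENSMUSG00000024042), a salt-inducible kinase that restrains CREB coactivators and so limits cAMP-driven transcription, was low throughout. It had 5.74, 3.71 and 4.87 CPM after fear conditioning, against 2.60 and 9.23 CPM in the home cage. The fear conditioned values lay within a narrow band, and the home cage values lay on either side of it, 3.54 times apart. The log2 fold change was -0.09 (SE 0.66, 95% interval -1.70 to 1.52, adjusted p = 0.955 in limma), an interval that leaves room for a change of either sign. All 3 coactivators that Sik1 phosphorylates were below both home cage libraries in every fear conditioned library, as 16.1% of all genes were, without passing the test: the log2 fold change was -0.22 for Crtc1, -0.41 for Crtc2 and -1.21 for Crtc3 (these 3 genes were singled out after their values were seen). Other listed partners of Sik1, Hdac4 (0.77), Hdac5 (0.28) and its activating kinase Stk11 (1.06), had positive log2 fold changes and overlapped.

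**Figure D2:**
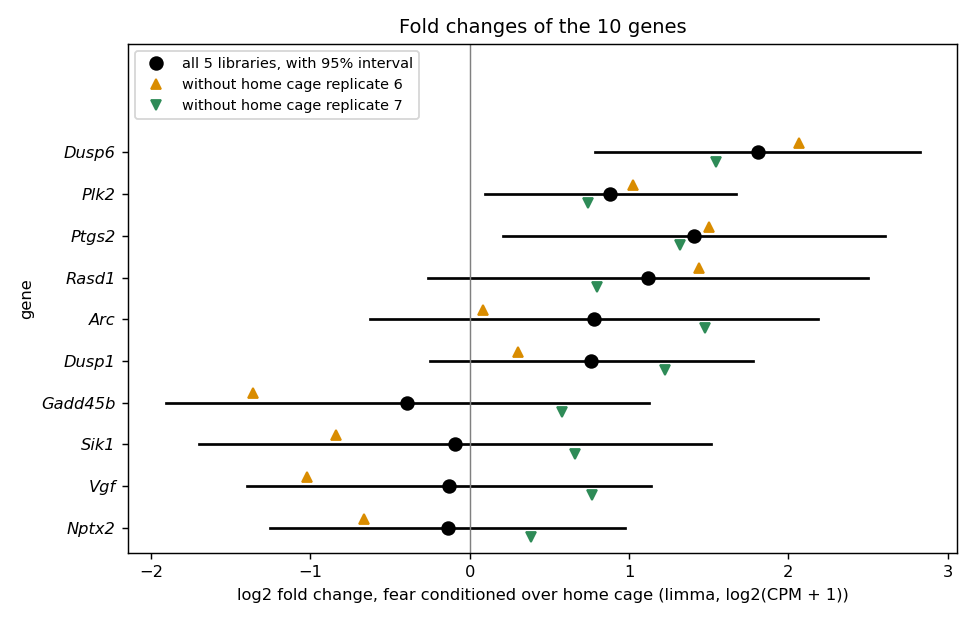
Log2 fold change of each gene, fear conditioned over home cage, on the horizontal axis (limma on log2(CPM + 1)), with black points and 95% intervals for all 5 libraries, upward triangles for the fit without home cage replicate 6 and downward triangles for the fit without home cage replicate 7. Dusp6 (1.81), Ptgs2 (1.41) and Plk2 (0.88) have intervals above 0, while Gadd45b, Sik1, Vgf and Nptx2 lie below 0 without home cage replicate 6 and above 0 without home cage replicate 7.

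The promoters of Plk2 and Dusp1 are shown because both hold a full cAMP response element (CRE), the palindrome to which CREB binds, although their values separated the groups to different degrees. RefSeq promoter sequences (GRCm38.p6) were matched for 5 of the 10 genes (Dusp1, Dusp6, Gadd45b, Plk2 and Ptgs2), and the 250 bases before the start were searched on both strands. The full element TGACGTCA was found in Plk2 and Dusp1 and in 1.55% of all 32851 promoters. The shorter core TGACG, which the full element contains, was found in the same 2 members and in 17.8% of all promoters. The AP-1 element TGANTCA was in none of the 5 and in 6.75% of all promoters. In Plk2 the full element starts 62 bases before the start, in the window chr13:110394962-110395009 on the plus strand. In Dusp1 the full element starts 143 bases before the start, and a separate core starts 191 bases before the start. Both are in the window chr17:26508588-26508683 on the minus strand. Capitals mark the elements.
Plk2: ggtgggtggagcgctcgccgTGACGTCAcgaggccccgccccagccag
Dusp1: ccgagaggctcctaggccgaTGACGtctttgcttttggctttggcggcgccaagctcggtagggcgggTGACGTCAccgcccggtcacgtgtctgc

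Ptgs2 (ENSMUSG00000032487) encodes cyclooxygenase-2, the inducible enzyme of prostaglandin synthesis. It had 1.23, 2.08 and 2.28 CPM after fear conditioning, from 26, 50 and 46 reads. In the home cage it had 0.134 CPM from 4 reads in replicate 6 and no read in replicate 7. The lowest fear conditioned value was 9.23 times the higher home cage value, and the ratio of the means (27.9) rests on those 4 reads. On the log2(CPM + 1) scale, which understates the change of such a low gene, the log2 fold change was 1.41 (SE 0.50, 95% interval 0.21 to 2.61, unadjusted p = 0.028, adjusted p = 0.251 in limma). On recovered reads it was 4.64 in edgeR and 4.73 in DESeq2 (adjusted p = 0.107), whereas with quantile normalization of the CPM values the limma log2 fold change was 0.53 (unadjusted p = 0.277). Home cage replicates 6 and 7 listed 976 and 2681 genes at 0, and the part of this in the low home cage values of Ptgs2 was not tested.

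Genes around Ptgs2 were mixed. Ptgs1, the constitutive cyclooxygenase, had 8.25, 6.83 and 10.4 CPM after fear conditioning, against 12.7 and 1.79 CPM in the home cage, so that it overlapped between the groups and exceeded Ptgs2 in all 5 libraries. Ptger1, a receptor for the prostaglandin PGE2, had 4.50, 5.79 and 5.46 CPM after fear conditioning, against 1.84 and 0.0527 CPM in the home cage. Its log2 fold change was 1.85 (SE 0.64, unadjusted p = 0.026, adjusted p = 0.247 in limma), and its groups did not overlap, but its home cage mean of 0.945 CPM was below the filter on low values, which it passed through the fear conditioned libraries.

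Rasd1 (ENSMUSG00000049892) encodes a small Ras-like GTPase that was first known as a glucocorticoid-induced gene and modulates G protein signalling. It had 17.2, 20.7 and 9.38 CPM after fear conditioning, against 8.21 and 4.90 CPM in the home cage. The groups did not overlap, but fear conditioned replicate 4 was only 1.14 times home cage replicate 6. The means were 15.8 ± 5.81 CPM (SD, n = 3) and 6.56 ± 2.34 CPM (SD, n = 2), and the log2 fold change was 1.12 (SE 0.57, 95% interval -0.26 to 2.5, unadjusted p = 0.095, adjusted p = 0.373 in limma). Rasd2, the striatal relative of Rasd1 and far more abundant here, had 965, 1793 and 1467 CPM after fear conditioning, against 283 and 671 CPM in the home cage (log2 fold change 1.64, SE 0.45, unadjusted p = 0.0097, adjusted p = 0.207 in limma). Of the glucocorticoid response genes, 12 were matched and 11 tested, with 0 higher and 0 lower at an unadjusted p under 0.05 (9.49% and 7.32% of all genes) and a median log2 fold change of -0.26. Of the 11, 1 was above and 1 below both home cage libraries, against 20.2% and 16.1% of all genes. Fkbp5, a co-chaperone of the glucocorticoid receptor, was the gene above (60.2, 89.5 and 64.9 CPM against 56.9 and 48.1 CPM), and Nfkbia, an inhibitor of NF-kB, was the gene below (log2 fold change -0.48).

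Arc (ENSMUSG00000022602), the cytoskeletal protein that drives endocytosis of AMPA receptors, varied most among the fear conditioned libraries. It had 114, 164 and 56.4 CPM there, and 36.1 and 96.2 CPM in the home cage. Fear conditioned replicates 2 and 3 were above both home cage libraries, and replicate 4 was between them. The log2 range over the fear conditioned libraries was 1.52 for Arc and 1.07 for Rasd1, and these were the 2 members with a range over 1, against 8.31% of all genes tested. The limma log2 fold change of Arc was 0.78 (SE 0.58, 95% interval -0.63 to 2.18, adjusted p = 0.519). Homer1, a postsynaptic scaffold gene with an activity-induced short form, had 250, 457 and 391 CPM after fear conditioning, against 180 and 226 CPM in the home cage, with no overlap (log2 fold change 0.81, SE 0.31, unadjusted p = 0.038, adjusted p = 0.274 in limma). The log2 ratio of Arc to Homer1 overlapped between the groups and differed by -0.04 (exact permutation p = 1).

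Nptx2 (ENSMUSG00000059991), the secreted pentraxin Narp that clusters AMPA receptors, had 29.1, 22.1 and 19.5 CPM after fear conditioning, against 17.5 and 37.4 CPM in the home cage. The groups overlapped, and the log2 fold change was -0.14 (SE 0.46, 95% interval -1.25 to 0.97, adjusted p = 0.896 in limma). Nptx1, the less activity-dependent pentraxin of the same family, was below both home cage libraries in every fear conditioned library, with 50.4, 56.0 and 24.4 CPM against 80.3 and 174 CPM (log2 fold change -1.5, SE 0.49, unadjusted p = 0.021, adjusted p = 0.235 in limma). The ratio of the pentraxins did not overlap between the groups but did not pass its test. The log2 ratio of Nptx2 to Nptx1 was 0.26, -0.27 and 0.72 after fear conditioning and -1.10 and -1.16 in the home cage, a difference of 1.37 with no overlap (exact permutation p = 0.1, adjusted p = 0.45 over 9 ratios). The home cage libraries, which were far apart for Nptx2 itself, were close to each other on this ratio.

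Vgf (ENSMUSG00000037428), the precursor of secreted neuropeptides such as TLQP-21, had 147, 106 and 104 CPM after fear conditioning, against 68.7 and 240 CPM in the home cage. The home cage libraries were 3.49 times apart, and the fear conditioned libraries lay between them. The log2 fold change was -0.13 (SE 0.52, 95% interval -1.40 to 1.14, adjusted p = 0.916 in limma). Scg2 and Chgb, granins stored in the same dense-core vesicles, had log2 fold changes of -0.15 (SE 0.32, adjusted p = 0.827) and 0.52 (SE 0.23, adjusted p = 0.319) in limma, and Chgb was above both home cage libraries in every fear conditioned library.

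Gadd45b (ENSMUSG00000015312), a growth arrest and DNA damage gene that takes part in activity-dependent demethylation of DNA, had 20.7, 16.8 and 16.9 CPM after fear conditioning, against 11.8 and 47.9 CPM in the home cage. It had the tightest fear conditioned libraries of the 10 genes as a ratio (1.23 from lowest to highest) and, Ptgs2 with its 0 in home cage replicate 7 set aside, the widest home cage pair (4.06 times apart). The log2 fold change was -0.39 (SE 0.63, 95% interval -1.91 to 1.13, adjusted p = 0.776 in limma). Gadd45g overlapped between the groups as well, with a log2 fold change of -0.36 (SE 0.35, adjusted p = 0.617), whereas Gadd45a was below both home cage libraries in every fear conditioned library (5.45, 3.91 and 5.66 CPM against 7.48 and 26.1 CPM, log2 fold change -1.35, SE 0.67, adjusted p = 0.366 in limma).

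The 10 genes thus fell into different profiles over the 5 libraries. Home cage replicate 7 was the highest of all 5 libraries for 4 genes (Nptx2, Sik1, Gadd45b and Vgf) and the lowest for 4 others (Ptgs2, Dusp6, Rasd1 and Plk2). The log2 difference of home cage replicate 7 from replicate 6 was over 1 for 5 of the 10 genes, against 19.6% of all genes tested, with Gadd45b at 1.93, Vgf at 1.79, Sik1 at 1.5, Arc at 1.39 and Nptx2 at 1.05. It was under -1 for 0 of the 10 genes, against 33.1% of all genes tested. The differences were -0.18 for Ptgs2, -0.28 for Plk2, -0.52 for Dusp6 and -0.64 for Rasd1. The 4 genes which separated the groups were thus also those for which home cage replicate 7 was below replicate 6. For Ptgs2 that order rests on 4 reads in replicate 6 against 0 in replicate 7.

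The choice of home cage library decided the direction of 4 genes. Against home cage replicate 6 alone, all 3 fear conditioned libraries were higher for 10 of the 10 genes, where 37.3% of all genes tested were. Against home cage replicate 7 alone this held for 4 of the 10 genes, where 50.2% of all genes tested were. In fits without home cage replicate 6 and without home cage replicate 7, in which the lone home cage library is assumed to vary like the others, the log2 fold change was -0.66 and 0.39 for Nptx2, -1.02 and 0.77 for Vgf, -0.84 and 0.66 for Sik1, and -1.36 and 0.58 for Gadd45b. Among the other 6 genes the log2 fold change kept its sign in both fits. For Dusp6 it was 2.07 and 1.54, for Plk2 1.02 and 0.74, and for Arc 0.08 and 1.47. For Rasd1 the log2 fold change was 1.44 and 0.798, and for Dusp1 0.30 and 1.23. Calls from these fits are not given, because a lone home cage library has no measurable spread.

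**Figure D3:**
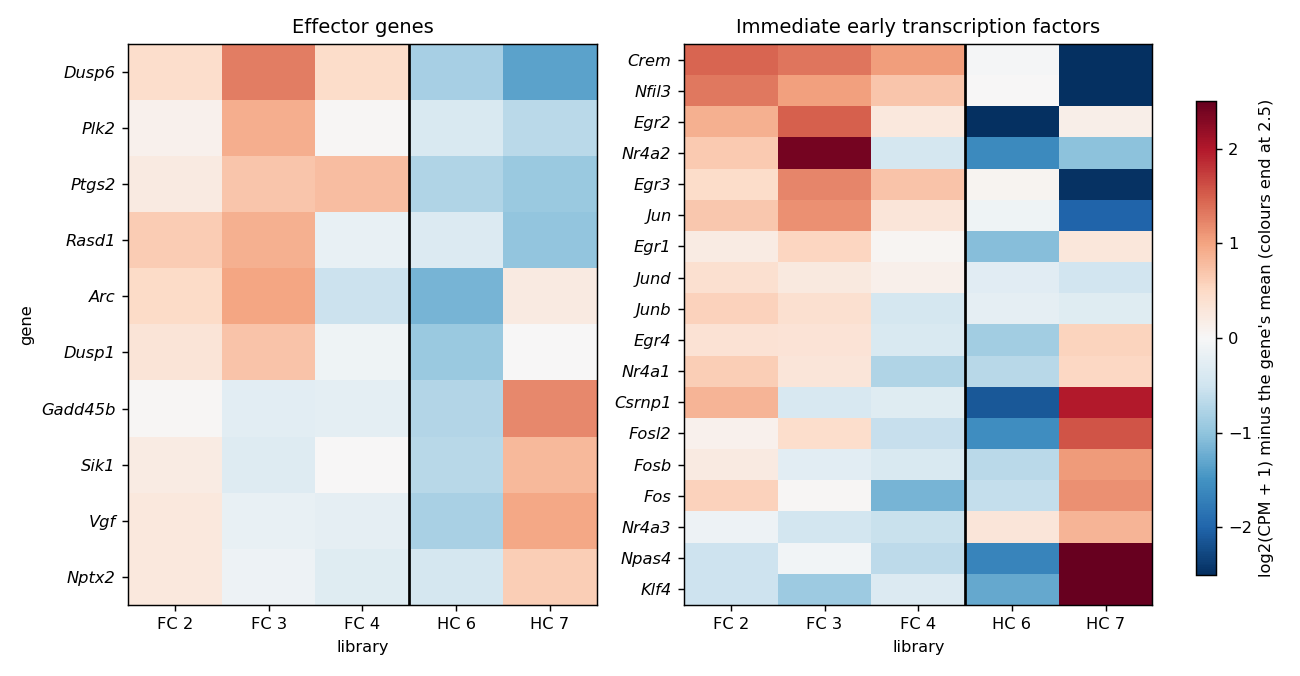
Profiles over the 5 libraries (FC, fear conditioned replicates; HC, home cage replicates; black line between the groups) of the 10 effector genes on the left and the 18 tested immediate early transcription factors on the right, as log2(CPM + 1) minus the mean of the gene, in red where above the mean and blue where below, with colours ending at 2.5. Effector genes from Dusp6 to Rasd1 are blue in both home cage libraries, and those from Gadd45b to Nptx2 are red in home cage replicate 7.

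The likeness of profiles was measured as the root mean square (RMS) difference between centred log2(CPM + 1) values over the 5 libraries, as a description with no test. Among the 10 genes the closest pairs were Sik1 with Vgf (0.15) and Gadd45b with Vgf (0.16), and Arc was closest to Dusp1 (0.28) and Rasd1 to Plk2 (0.29). Nptx2, Sik1, Gadd45b and Vgf had a common kind of profile. They had 831, 649, 442 and 423 other genes within 0.25, with the nearest being H2afj (0.033), Ubr4 (0.051), Fscn1 (0.055) and Mrps28 (0.046). Profiles like those of Ptgs2 (137 genes within 0.25, nearest Gm15139), Plk2 (108, nearest Pmm2), Dusp1 (74, nearest Cited4), Dusp6 (33, nearest Ppp1cc at 0.073) and Rasd1 (19) were less frequent. Arc had 1 gene within 0.25, the low-level gene Psrc1 (0.23).

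Levels can be compared between genes only per length, and per kb of the deposited gene length the order of mean levels was Plk2, Vgf, Arc, Gadd45b, Dusp6, Dusp1, Nptx2, Rasd1, Sik1 and Ptgs2. Plk2 had a mean of 200 CPM per kb (SD 91.0 over the 5 libraries) and was above the next gene, Vgf (52.2 CPM per kb, SD 25.8), in 5 of 5 libraries. Rasd1 (7.51 CPM per kb) was above Sik1 (1.16 CPM per kb), and Sik1 above Ptgs2 (0.277 CPM per kb), in 5 of 5 libraries. Between Vgf and Rasd1 each gene was above the next in only 3 or 4 of the 5 libraries, and the mean levels of these neighbours lay within the SD over libraries of the higher one. Dusp6 and Dusp1 were close on average (12.8 and 11.5 CPM per kb), with Dusp6 the higher in 4 of 5 libraries and the lower in home cage replicate 7. Plk2 stood on average at the 98th percentile of gene values in the table and Ptgs2 at the 12.8th, so that counting error weighs most on Ptgs2 and least on Plk2.

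**Figure D4:**
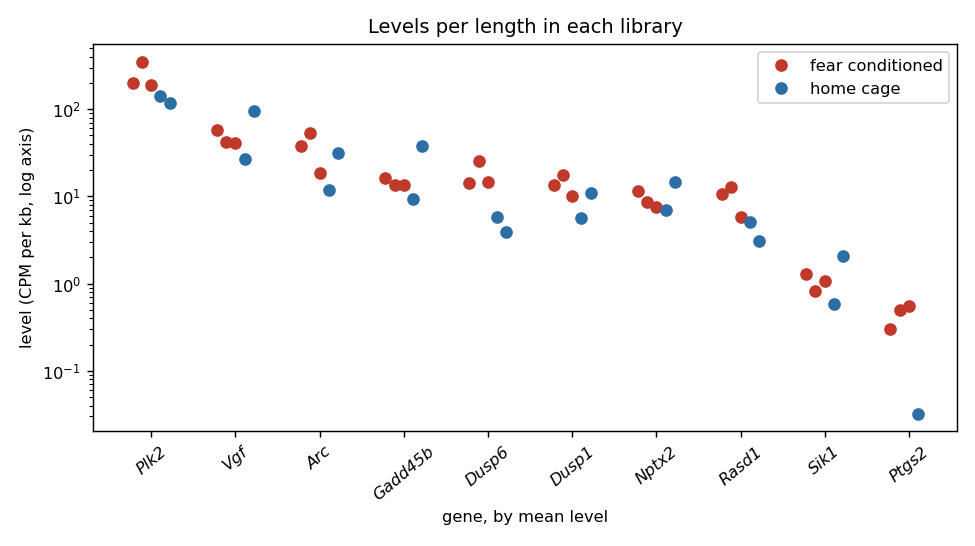
Level of each gene in CPM per kb of gene length (vertical log axis) in the 3 fear conditioned libraries (red) and the 2 home cage libraries (blue), with genes ordered by mean level. Plk2 is above all others (mean 200 CPM per kb), and Ptgs2 is the lowest (mean 0.277 CPM per kb), with its home cage replicate 7 value of 0 not drawn.

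Other genes of the activity programme were also found above, below and between the home cage libraries. Of 20 immediate early transcription factors, 18 were tested, with 4 higher and 0 lower at an unadjusted p under 0.05 (9.49% and 7.32% of all genes) and a median log2 fold change of 0.35. In this list 7 tested genes were above and 1 was below both home cage libraries in all fear conditioned libraries, against 20.2% and 16.1% of all genes tested, and these shares are also the background of the counts of this kind in the lists that follow. Crem, which encodes activators and the inducible repressor of cAMP-driven transcription, had 45.1, 41.4 and 33.6 CPM after fear conditioning, against 15.4 and 0.211 CPM in the home cage (log2 fold change 3.19, SE 1.06, adjusted p = 0.237 in limma). Jund, a constitutive AP-1 subunit, had 220, 197 and 182 CPM against 136 and 119 CPM (log2 fold change 0.64, SE 0.21, adjusted p = 0.235 in limma). Egr1, with the largest CPM of the list, had 374, 474 and 335 CPM against 155 and 395 CPM and overlapped, as Arc did. Fos (22, 14.8 and 5.91 CPM against 9.25 and 33.2 CPM) and Npas4 (1.19, 2.00 and 0.993 CPM against 0 and 22.3 CPM), named after their values were seen, were highest in home cage replicate 7. The median log2 difference of home cage replicate 7 from replicate 6 was 1.27 for this list, 0.99 for the 10 genes and -0.20 for all genes tested.

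Of 30 other activity-regulated effectors, 28 were matched and 26 tested, with 3 higher and 1 lower at an unadjusted p under 0.05 (9.49% and 7.32% of all genes) and a median log2 fold change of 0.44. In this list 8 were above and 3 below both home cage libraries. Gpr3, a constitutively active receptor that raises cAMP, had 11.5, 6.08 and 5.81 CPM after fear conditioning, against 0.167 and 0.105 CPM in the home cage (log2 fold change 2.90, SE 0.57, unadjusted p = 0.0021, adjusted p = 0.197 in limma). Nedd9, a docking protein of focal adhesions, had 4.27, 6.04 and 8.69 CPM against 0.0334 and 0.0527 CPM (log2 fold change 2.77, SE 0.56, unadjusted p = 0.0022, adjusted p = 0.197 in limma). Both were at or near 0 in both home cage libraries and, like Ptgs2, passed the filter on low values only through the fear conditioned libraries, which favours a difference. Nrn1, a surface protein that promotes neurite growth, went the other way, with 35.2, 42.9 and 7.5 CPM against 111 and 128 CPM (log2 fold change -2.33, SE 0.72, adjusted p = 0.227 in limma).

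The relatives of the 10 genes and their partners differed in sign. Of 19 tested paralogs, 2 were higher and 1 lower at an unadjusted p under 0.05 (9.49% and 7.32% of all genes), with a median log2 fold change of 0.50 and 7 above and 2 below both home cage libraries (20.2% and 16.1% of all genes). Among the inducible phosphatases, Dusp2 had 4.69, 3.21 and 2.48 CPM after fear conditioning, against 0 and 0.264 CPM in the home cage (log2 fold change 1.96, SE 0.53, unadjusted p = 0.0096, adjusted p = 0.207 in limma, with the filter on low values passed only through the fear conditioned libraries), and Dusp5, which acts on nuclear ERK, had 13.4, 14.7 and 7.20 CPM against 6.55 and 0.105 CPM. Of 32 tested partners and substrates, 1 was higher and 1 lower at an unadjusted p under 0.05 (9.49% and 7.32% of all genes), with a median log2 fold change of -0.21, and 10 of them were below and 2 above both home cage libraries (16.1% and 20.2% of all genes). Gnai1, a Gi subunit of the kind on which Rasd1 acts, had 129, 133 and 109 CPM after fear conditioning, against 296 and 195 CPM in the home cage (log2 fold change -0.95, SE 0.26, unadjusted p = 0.0098, adjusted p = 0.208 in limma). Of 9 heat shock genes, 1 was higher and 0 lower at an unadjusted p under 0.05 (9.49% and 7.32% of all genes), with a median log2 fold change of 0.43. In this list 4 were above and 0 below both home cage libraries (20.2% and 16.1% of all genes).

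Markers of the tagged neurons and of several other cell types also differed in level between the groups, although none of the marker genes passed the test across all genes (limma, adjusted p = 0.239 for Drd2 and 0.200 for Adora2a). Of the 7 Drd2 neuron genes listed, 6 were matched, all in every library, and 4 of these were above both home cage libraries in all fear conditioned libraries (20.2% of all genes), among them Drd2 itself (326, 375 and 555 CPM against 128 and 262 CPM) and Adora2a (453, 771 and 775 CPM against 105 and 275 CPM). The summed level of the list was 17187, 15128 and 16750 CPM after fear conditioning, against 6501 and 9359 CPM in the home cage, mostly from Penk. For the 7 Drd1a neuron genes, 3 were above both home cage libraries, with a median log2 fold change of 1.23, and Tac1 had the largest CPM in the fear conditioned libraries, Sfxn1 in home cage replicate 6 and Pdyn in home cage replicate 7. The 10 astrocyte genes summed to 1091, 900 and 1135 CPM against 2358 and 2966 CPM, with 6 below both home cage libraries (16.1% of all genes) and the largest CPM in Aldoc after fear conditioning and in Slc1a2 in the home cage. The 10 oligodendrocyte genes summed to 1886, 1290 and 2738 CPM against 2808 and 5251 CPM, and the 10 endothelial and mural cell genes to 61.8, 22.6 and 55.9 CPM against 133 and 138 CPM (largest CPM in Vtn after fear conditioning and in Rgs5 in the home cage). Of the 9 tested endothelial and mural cell genes, 4 were below and 1 above both home cage libraries (16.1% and 20.2% of all genes). The gene above was Cldn5 (8.91, 1.79 and 7.25 CPM against 1.14 and 0.0527 CPM, log2 fold change 2.03, adjusted p = 0.272 in limma). Its home cage mean was 0.594 CPM, and it passed the filter on low values through the fear conditioned libraries. The 10 choroid plexus genes summed to 108, 184 and 117 CPM against 2229 and 1902 CPM, and the largest CPM was that of Clic6 in the 3 fear conditioned libraries, Enpp2 in home cage replicate 6 and Ttr in home cage replicate 7, with Folr1 at 0 and Kcnj13 at 0 in fear conditioned replicate 2. The microglia genes summed to 140, 77.1 and 138 CPM against 162 and 132 CPM (largest CPM in Csf1r in the home cage libraries) and overlapped.

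**Figure D5:**
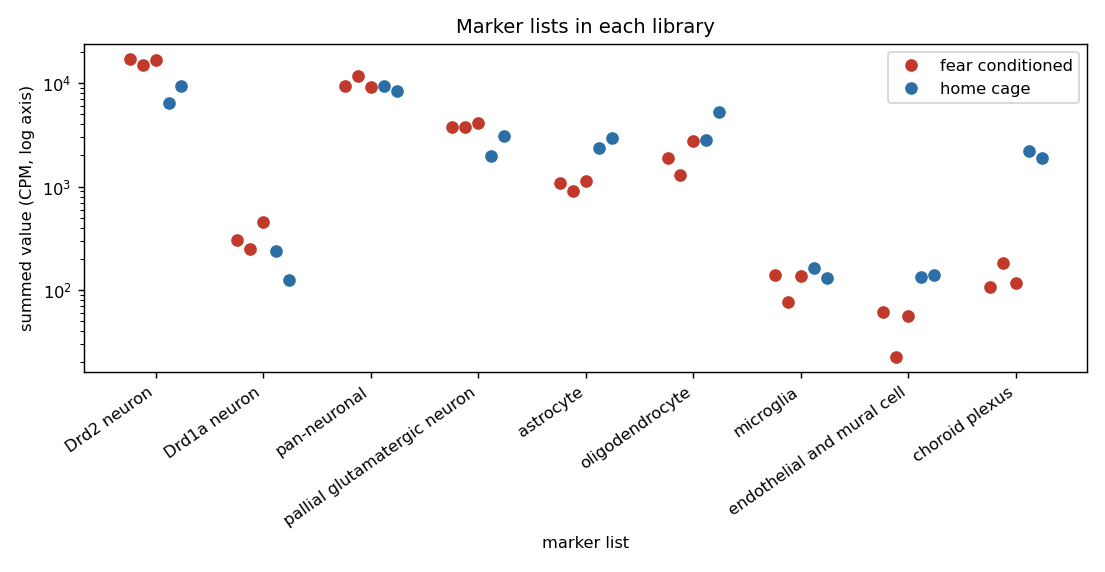
Summed value in CPM (vertical log axis) of each marker list in the 3 fear conditioned libraries (red) and the 2 home cage libraries (blue). Drd2 neuron genes are higher in all fear conditioned libraries (15128 to 17187 CPM against 6501 and 9359 CPM), and astrocyte, oligodendrocyte, endothelial and mural cell and choroid plexus genes are lower.

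The 12 pan-neuronal genes had a median log2 fold change of -0.36, with the largest CPM in Snap25 in all 5 libraries. The 12 genes of pallial glutamatergic neurons, which surround the CeA in the cortex and basolateral amygdala, had a median log2 fold change of -0.50, although their sum was higher after fear conditioning because of Nrgn, which other forebrain neurons also express. Of the 10 CeA genes, 2 were above both home cage libraries, 4 were below and 4 overlapped, and Ppp1r1b had the largest CPM in all 5 libraries. Prkcd (11.5, 11.9 and 11.2 CPM against 14.2 and 41.1 CPM) and Sst (133, 65.5 and 72.0 CPM against 146 and 280 CPM), which mark CeA cell types, were among those below, while Crh (log2 fold change 1.03) and Tac2 (1.07), the latter at 0 in home cage replicate 7, overlapped. The 8 interneuron genes had a median log2 fold change of -0.97, and the gene with the largest CPM differed between libraries.

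The values of the 10 genes depended on what they were set against. With each library rescaled to the same mean level of the Drd2 neuron genes, a setting added after those levels were seen that lowers the median log2 fold change of all genes to -0.84, 1 of the 10 genes (Ptgs2, whose mean then fell below the filter so that it was not fitted) stayed above both home cage libraries in all fear conditioned libraries, and 2 (Nptx2 and Gadd45b) were below both. Under that scaling the log2 fold change was 0.85 for Dusp6, 0.22 for Rasd1, -0.11 for Plk2, -0.20 for Arc and -0.20 for Dusp1. With libraries rescaled to the pan-neuronal genes instead, where the median of all genes is 0.28, 5 of the 10 genes were above both home cage libraries, Dusp1 being the added gene. The share of all genes above or below both home cage libraries was not counted under either scaling, and the shares given earlier do not apply to these counts. The part of these cell type differences in the values of the 10 genes was not tested.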

How the data were processed

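TRAP RNA was measured in 3 fear conditioned and 2 home cage libraries, each pooled from 3 animals. Libraries were made with SMARTer and Nextera XT kits. The values deposited by the authors are a normalized signal per gene, scaled to 1000000 of an effective library size (CPM), and the other column used is gene length. The submitters' processing notes name DESeq and the mm8 build. The aligner, versions and strand setting are not given in the sources used here. All values (100%) were whole multiples, within 0.01, of the value of 1 read, and these multiples served as recovered reads.

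Groups were compared with limma 3.58.1 (trend) in R 4.3.3 on log2(CPM + 1), in a two-sided test of the 13560 genes whose mean reached 1 CPM. Benjamini-Hochberg adjustment covered all of them, and a gene was called where the adjusted p was under 0.05 and the log2 fold change beyond 0.5 in size. The unit was planned for as either counts or a normalized value. The code was tested on simulated data. edgeR 4.0.16 (quasi-likelihood) and DESeq2 1.42.0 on recovered reads, a pseudocount of 0.1, other filters and scalings, library weights, a looser limit of 0.1 on the adjusted p, and omission of each library were alternatives. Ratios of a member to a relative, per length, were compared by an exact two-sided permutation test over 10 assignments.

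The 10 genes, the gene lists and the tests were chosen with earlier results of these data known. Named genes are the 10 members and, from each list, those called or otherwise the 3 with the largest mean and the 2 with the smallest unadjusted p, the relatives used in ratios, and the nearest genes by profile. Further genes were named after their values were seen (Fos, Npas4, Nrn1, Dusp5, Crtc1, Crtc2, Crtc3, Hdac4, Hdac5, Stk11, Nfkbia, Gadd45a, Prkcd, Crh, Tac2, Folr1 and Kcnj13). The labels give no batch or sex and do not say whether the pools came from separate sessions, so p-values measure only the spread between these pools. Genes with shared names were joined by identifier. Reads of overlapping or near-identical genes could not be told apart from the table. Of the genes chosen by the rule for named genes, 3 are not reported here.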

Additional observations from a re-analysis of the deposited data

How the results depend on the processing

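Limits are set mostly by the home cage group of 2 unlike libraries, and Ptgs2 also by its 4 home cage reads. The number of genes called was 0 in the fit as described and in edgeR's quasi-likelihood test, 1128 in DESeq2, 1247 with Drd2 neuron scaling, and between 0 and 8025 when each library was left out (1 without fear conditioned replicate 3, 3722 without home cage replicate 7, 8025 without home cage replicate 6). Of the 10 genes, 1 was called in DESeq2, as higher, where 3.68% of all genes were called higher. With a fear conditioned library left out, 0 of them were called, where at most 1 gene of the whole table was. The number above both home cage libraries was 4 as described (20.2% of all genes), 1 with Drd2 neuron scaling, and between 4 and 10 when each library was left out. It was 10 without home cage replicate 7 and 4 without home cage replicate 6, where 37.3% and 50.2% of all genes tested lay above the remaining home cage library. The share of all genes was not counted with Drd2 neuron scaling or with a fear conditioned library left out. With Drd2 neuron scaling the log2 fold change was -0.20 for Arc, -0.20 for Dusp1 and -0.11 for Plk2. With pan-neuronal scaling it was 0.065 for Nptx2, 0.091 for Sik1 and 0.080 for Vgf, and with quantile normalization 0.028 for Nptx2. Over the fits that leave out 1 library, 4 fold changes had both signs: Nptx2, from -0.66 to 0.39, Sik1, from -0.84 to 0.66, Vgf, from -1.02 to 0.77, and Gadd45b, from -1.36 to 0.58. Of the ratio differences, 7 had both signs over the libraries left out: Arc to Homer1, from -0.57 to 0.50, Gadd45b to Gadd45g, from -1.07 to 1.01, Plk2 to Plk3, from -2.004 to 0.17, Ptgs2 to Ptgs1, from -0.25 to 1.87, Rasd1 to Rasd2, from -1.47 to 0.42, Sik1 to Sik2, from -3.16 to 1.95, and Vgf to Scg2, from -0.94 to 1.00. For the 2 ratios without overlap, Nptx2 to Nptx1 ranged from 1.12 to 1.62 and Dusp1 to Dusp6 from -1.77 to -0.32. Ptgs2 was below the filter, and has no value, where at least 1 CPM was required in all 5 libraries, with Drd2 neuron scaling, without fear conditioned replicate 3 and without fear conditioned replicate 4. No paired analysis was possible because the groups share no replicate number. The causes of these changes were not tested.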
